A study of Mus musculus with 10 samples.

Results

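Endothelial cells carry surface proteins that immune cells read as inhibitory signals, the immune checkpoint ligands, and the genes of 8 such ligands were followed here among the 46517 mouse genes of the count tables. The genes were taken by name, and their Ensembl identifiers were matched to symbols in the GENCODE vM21 annotation. They are *Cd276* (B7-H3), *Cd274* (PD-L1) and *Pdcd1lg2* (PD-L2) of the B7 family, *Nectin2* and *Pvr* of the nectin family, *Cd200*, *Cd47* and *Tnfsf10* (TRAIL). They were described in lymphatic and blood endothelial cells (LECs and BECs), in the LECs that express *Ptx3*, a secreted pattern recognition protein, and in mutant against control mice.

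RNA of single endothelial cells from mouse ear skin was sequenced by Smart-Seq2, a method that covers transcripts over their full length and adds no molecular barcode. The 5 mutant mice (strain Pik3caH1047R;Cdh5-CreERT2, Cre+) express an activating mutant of the p110α subunit of PI3 kinase once 4-hydroxytamoxifen (4-OHT) has switched on a Cre recombinase, and 4-OHT was put on their ears at 3 wk of age. The *Cdh5* promoter drives this Cre in lymphatic and blood endothelium alike, so both cell types of a mutant mouse had been exposed to it. Control 1 was an untreated C57BL/6J mouse and control 2 a mouse of the mutant strain without Cre (Cre-) that had received 4-OHT. All 7 mice were 5 wk old at analysis. The methods give a C57BL/6J background for all mice, so the 2 controls differ in treatment and in the strain named by their labels, and values are given for each of them. Cells had been sorted on podoplanin and CD31, with blood cells and dead cells excluded by CD45, CD11b, Ter119 and a viability dye.

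Of 3456 wells, 3248 passed the limits of the study's methods (at least 200 genes and 50000 reads, at most 10% mitochondrial reads). Read counts scaled to the total of a cell (CPM) of *Prox1*, *Flt4* and *Mmrn1* together had to reach 300 and exceed those of *Flt1*, *Emcn* and *Podxl* in a LEC, and the reverse held for a BEC. This gave 1641 LECs, 1490 BECs and 117 cells of neither kind, although the labels name LECs only. Genes outside the gate followed it: *Lyve1*, *Pdpn*, *Reln* and *Ccl21a* summed to 3210.4 to 4822 CPM in the LECs of the 7 mice and to 72.0 to 463 CPM in their BECs. The mouse was the replicate, and reads were summed per mouse over 175 to 367 LECs (55616045 to 194353210 reads) and 157 to 330 BECs (38402388 to 99630824 reads). Fibroblast markers moved with genotype: *Col1a1*, *Col1a2*, *Pdgfra*, *Dcn* and *Lum* summed to 575 and 789.8 CPM in BECs of the controls and to 12.8 to 43.4 CPM in those of the mutants, with none of the 5 at 0 in every mouse. In BECs both controls lay above every mutant for 4 of 5 fibroblast and 2 of 5 mural cell markers. This held for 0 of 5 keratinocyte, 0 of 6 immune and 0 of 3 Schwann cell markers in BECs. In LECs it held for 4 of 5 fibroblast, 3 of 5 mural, 2 of 6 immune, 2 of 3 Schwann and 1 of 5 keratinocyte markers. Summed over all these kinds of cell, the markers reached 1000 CPM or more in 9.84% and 6.29% of control LECs. In mutants this was so in 2.48 to 4.95% of LECs. The plates of mutants 1–4 bear numbers of another series than those of mutant 5 and the controls, so plate series and genotype can be told apart through mutant 5 only.

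Checkpoint ligands work in trans, on the receptor of a cell that touches the endothelium. PD-L1 and PD-L2 bind PD-1 on T cells, nectin-2 and the poliovirus receptor (PVR) bind TIGIT and CD226 on T and natural killer cells, CD200 binds CD200R1 and CD47 binds SIRPα on myeloid cells, and TRAIL binds death receptors. B7-H3 is mostly described as an inhibitor of T cells, through a receptor that is not settled. In many cells PD-L1, PD-L2 and TRAIL are induced by interferons through STAT and IRF factors, and lymph node LECs are known for their PD-L1.

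Because those factors bind known short motifs, the promoters are shown for 2 ligands that were higher in BECs (*Tnfsf10*, *Cd274*) and 2 that were higher in LECs (*Cd276*, *Nectin2*). Each sequence runs 5′ to 3′ on the strand of its gene, from 250 bases before to 50 bases after the gene's start in RefSeq (assembly GRCm38.p6). Capitals mark matches, on either strand, of an IRF element (AANNGAAA) or a GC box (GGGCGG).
*Tnfsf10* promoter, chr3:27316827-27317126, plus strand: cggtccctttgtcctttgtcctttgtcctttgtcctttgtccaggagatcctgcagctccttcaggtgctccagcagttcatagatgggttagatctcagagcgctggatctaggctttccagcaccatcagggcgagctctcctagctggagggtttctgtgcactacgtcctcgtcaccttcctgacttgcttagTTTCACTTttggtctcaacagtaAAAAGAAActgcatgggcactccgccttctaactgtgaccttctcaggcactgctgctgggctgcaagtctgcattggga
*Cd274* promoter, chr19:29367188-29367487, plus strand: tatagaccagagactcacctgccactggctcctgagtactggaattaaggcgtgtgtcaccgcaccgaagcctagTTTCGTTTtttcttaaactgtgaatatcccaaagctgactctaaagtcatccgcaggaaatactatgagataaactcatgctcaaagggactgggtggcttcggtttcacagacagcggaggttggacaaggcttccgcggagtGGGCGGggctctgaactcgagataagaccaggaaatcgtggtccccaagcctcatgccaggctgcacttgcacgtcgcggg
*Cd276* promoter, chr9:58554984-58555283, minus strand: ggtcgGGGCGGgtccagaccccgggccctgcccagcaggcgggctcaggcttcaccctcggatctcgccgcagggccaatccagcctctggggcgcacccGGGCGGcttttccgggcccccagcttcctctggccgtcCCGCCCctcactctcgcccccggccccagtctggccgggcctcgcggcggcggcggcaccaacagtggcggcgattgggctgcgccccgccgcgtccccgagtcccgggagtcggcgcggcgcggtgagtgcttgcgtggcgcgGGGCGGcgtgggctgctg
*Nectin2* promoter, chr7:19749524-19749823, minus strand: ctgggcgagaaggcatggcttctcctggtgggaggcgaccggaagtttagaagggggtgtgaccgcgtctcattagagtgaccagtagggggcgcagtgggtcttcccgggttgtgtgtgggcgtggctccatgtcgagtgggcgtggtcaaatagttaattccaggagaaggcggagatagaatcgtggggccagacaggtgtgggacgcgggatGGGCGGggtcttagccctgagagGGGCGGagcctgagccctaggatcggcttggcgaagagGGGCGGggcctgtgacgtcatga
The *Tnfsf10* window holds 2 IRF elements and the *Cd274* window 1, and 1 each was found for *Pdcd1lg2* and *Cd200*, against 23.9% of all 32851 promoters of this length. The windows of *Cd276*, *Nectin2* and *Cd47* hold no match to these letters. GC boxes numbered 4 in *Cd276* and 3 each in *Nectin2* and *Cd47*, 1 each in *Cd274* and *Cd200*, and none in *Tnfsf10* and *Pdcd1lg2*, against 35.7% of promoters with at least 1. A GAS element (TTCNNNGAA), present in 8.30% of promoters, was found in none of the 7 genes with a promoter in the table. No binding was measured in these samples, so the matches describe sequence only.

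On GRCm38 the members lie in pairs or alone. *Cd274* (chr19:29367455-29388095) and *Pdcd1lg2* (chr19:29410919-29471161) are neighbours on the plus strand, and *Nectin2* (chr7:19716644-19750483) and *Pvr* (chr7:19903578-19921160) lie close together on the minus strand. *Cd200* (chr16:45382135-45409053, minus strand) and *Cd47* (chr16:49800533-49915010, plus strand) share a chromosome, while *Cd276* (chr9:58524298-58555437, minus strand) and *Tnfsf10* (chr3:27317028-27342427, plus strand) stand alone. All values below are counts over the exons of these genes.

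The level of the 8 ligands was first asked for each cell type. Per kilobase of exon, *Nectin2* led in LECs with 179 CPM per kb (mean of 7 mice, range 106 to 249.9), followed by *Cd47* with 146 and *Cd200* with 67.0. *Nectin2* and *Cd47* overlapped between mice, while *Cd200* lay below both in every mouse. *Cd276* (32.1 CPM per kb) and *Pvr* (7.44) were intermediate, with ranges that overlapped, *Tnfsf10* (1.63) and *Cd274* (0.967) were low and overlapped, and *Pdcd1lg2* had no read in any LEC. In BECs the order began with *Cd200* (132 CPM per kb, range 54.5 to 223), *Cd47* (108) and *Nectin2* (74.3), whose ranges met those of their neighbours. *Tnfsf10* (13.3), *Cd276* (11.2), *Cd274* (9.42) and *Pvr* (8.55) could not be ordered beyond the spread of the mice. Among genes with a read, *Nectin2* stood at percentile 99.1 of level per length in LECs and *Cd274* at percentile 55.0.

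**Figure D1:**
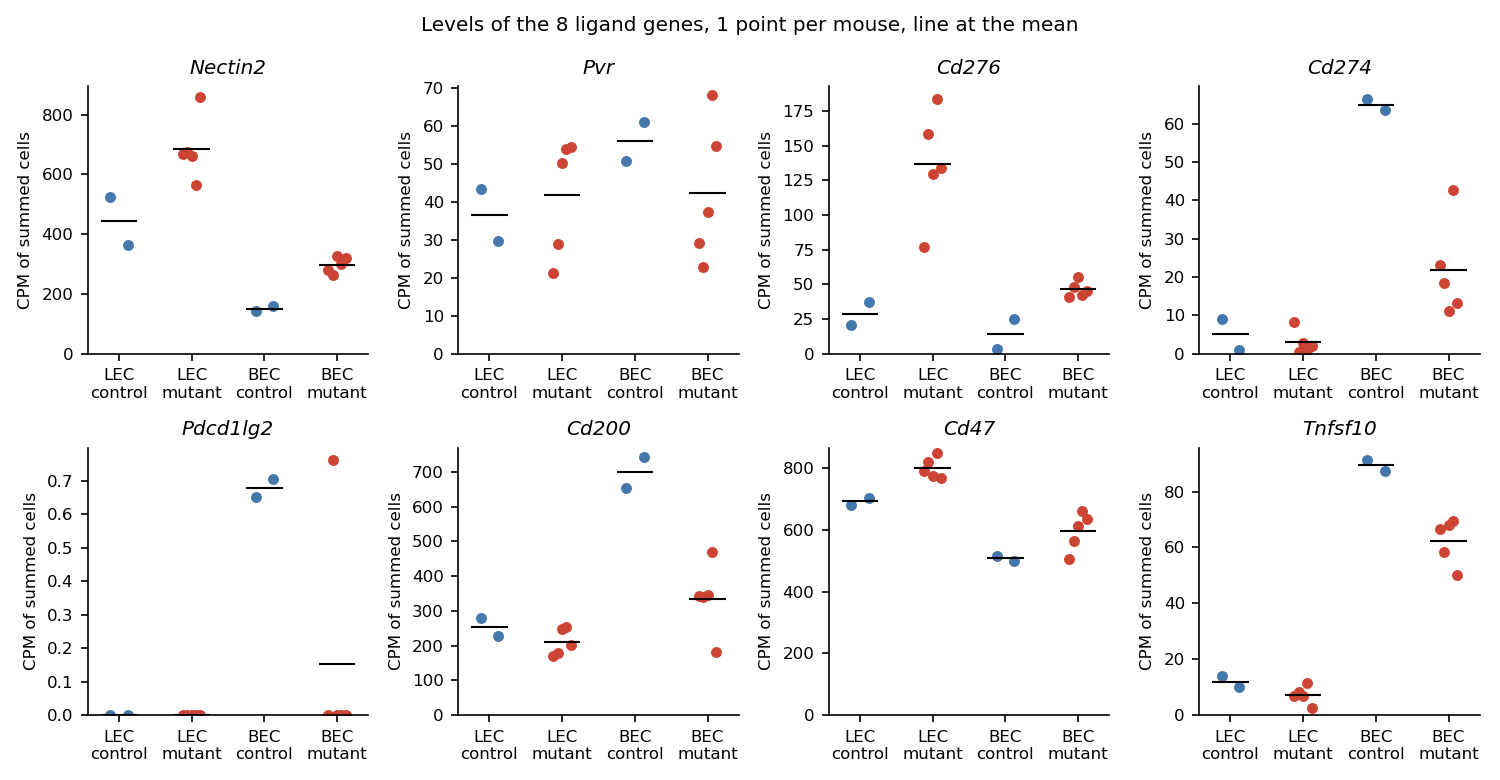
CPM of the 8 ligand genes (y axes, linear from 0, a scale of its own for each gene) in the summed LECs and BECs of each of 2 control (blue) and 5 mutant mice (red), with a line at the mean. *Nectin2*, *Cd47* and, in mutants, *Cd276* sat higher in LECs, *Cd200*, *Cd274* and *Tnfsf10* higher in BECs, and *Pdcd1lg2* was above 0 in BECs of 3 mice alone.

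LECs and BECs of the same mice were then compared. In mutant mice 3 ligands were higher in LECs (*Nectin2*, *Cd276*, *Cd47*) and 3 were higher in BECs (*Tnfsf10*, *Cd274*, *Cd200*), so 6 of 8 members passed edgeR's quasi-likelihood test at an adjusted p under 0.05, where 19.2% of all 21933 genes tested did (9.9% higher in LECs, 9.26% higher in BECs). In control mice 4 of 8 passed (*Nectin2* and *Cd47* higher in LECs, *Tnfsf10* and *Cd200* higher in BECs), against 10.4% of all genes (5.67% and 4.71%). Fewer cells with a transcript and less of it per cell cannot be told apart in these sums, and shares of cells are given further on.

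*Nectin2* encodes an adhesion protein of endothelial and epithelial junctions. Its level was 524 and 363 CPM in LECs of controls 1 and 2 and 668, 676, 661, 565 and 859.7 CPM in those of mutants 1–5. In BECs it was 143 and 158 CPM in the controls and 279.9, 263, 326, 298 and 321 CPM in the mutants. Within each genotype no LEC value met a BEC value. The difference was 2.96-fold in controls (log2 fold change 1.57, SE 0.20, adjusted p = 0.00229) and 2.28-fold in mutants (log2 fold change 1.19, SE 0.12, adjusted p = 3.4e-04). A transcript of *Gm20512* on the opposite strand shares 3.86% of the exon bases, and whether counting used strand is not stated.

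*Cd276* was low in controls of either cell type, with 20.5 and 37.2 CPM in LECs and 3.13 and 24.6 CPM in BECs of controls 1 and 2. In mutants 1–5 it stood at 76.9, 158, 129.6, 184 and 134 CPM in LECs and at 40.8, 47.9, 54.8, 42.4 and 45.0 CPM in BECs. All LEC values of the mutants lay above all BEC values. LECs exceeded BECs 2.84-fold in mutants (log2 fold change 1.51, SE 0.30, adjusted p = 0.0104), and the value in controls, 3.14-fold, missed the threshold (adjusted p = 0.0885). On the log2 scale the control value was 1.65, and it was 0.60 without control 1 and 2.78 without control 2. DESeq2 called the control value (adjusted p = 0.00381), as did edgeR with a stricter gate, in which one marker sum is 10 times the other (2.76, adjusted p = 0.0284). Without cycling cells the difference in mutants was 1.20 and missed the threshold (adjusted p = 0.0614, where its alternatives gave 5.3e-06 to 0.0614). *Gm10657*, on the opposite strand, shares 11.4% of the exon bases of *Cd276*.

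*Cd47*, the signal by which cells avoid being engulfed, was high in both cell types. Its level was 682 and 703 CPM in LECs of controls 1 and 2 and 792, 821, 777, 850.1 and 768 CPM in those of mutants 1–5. In BECs it was 517 and 499 CPM in the controls and 507, 566, 612, 662 and 637 CPM in the mutants. LECs were above BECs in every mouse, by 1.39-fold in controls (log2 fold change 0.48, SE 0.10, adjusted p = 0.0218) and 1.34-fold in mutants (log2 fold change 0.42, SE 0.06, adjusted p = 0.00250). Without the cells that carry markers of other skin cells the control value was 0.39 and missed the threshold (adjusted p = 0.104), as it did without control 1 or 2, without mutant 2 or 3 and on cells thinned to 50000 reads, within a range of 0.00482 to 0.144 over its alternatives.

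*Tnfsf10*, which encodes a ligand of death receptors, was far higher in BECs. In LECs it was at 13.8 and 10.00 CPM in controls 1 and 2 and at 6.96, 8.15, 6.82, 11.6 and 2.58 CPM in mutants 1–5. In BECs it was at 91.3 and 87.4 CPM in the controls and at 66.4, 58.2, 68.0, 69.4 and 50.1 CPM in the mutants. The cell types did not meet in any mouse. BECs were 7.44-fold higher in controls (log2 fold change -2.89, SE 0.40, adjusted p = 0.00371) and 9.56-fold higher in mutants (log2 fold change -3.26, SE 0.26, adjusted p = 1.0e-04). Without control 2 the adjusted p in controls was 0.0504, the highest of its alternatives, which began at 7.2e-12.

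*Cd274*, the PD-L1 gene, was read mostly in BECs. Its level in BECs was 66.6 and 63.5 CPM in controls 1 and 2 and 23.2, 18.4, 11.2, 42.7 and 13.1 CPM in mutants 1–5. LECs held 9.14 and 0.817 CPM in the controls and 8.23, 0.467, 2.85, 0.935 and 2.09 CPM in the mutants. The highest LEC value in these mice lay below the lowest BEC value. A single cell supplied 84.3% of the *Cd274* reads of LECs in mutant 5, and 3 cells supplied 73.8% in control 1 and 65.9% in mutant 1. BECs exceeded LECs 9.80-fold in mutants (log2 fold change -3.29, SE 0.83, adjusted p = 0.0269), a call lost without mutant 2, 4 or 5 and with the stricter gate (adjusted p of 0.0735, 0.0671, 0.0621 and 0.0673, in a range of 7.6e-07 to 0.0735 over its alternatives). The 22.6-fold value in controls missed the threshold (log2 fold change -4.50, adjusted p = 0.0849), and its size rests on both mice, with -6.28 without control 1 and -2.80 without control 2. DESeq2 called it (adjusted p = 4.6e-05), as did edgeR on cells thinned to 50000 reads (adjusted p = 0.0468).

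*Cd200*, whose product restrains myeloid cells, was expressed in both cell types. In BECs its level was 655 and 741 CPM in controls 1 and 2 and 342, 339.5, 345, 468 and 181 CPM in mutants 1–5. In LECs it was 280.0 and 226 CPM in the controls and 170.5, 178, 247, 252 and 202 CPM in the mutants. The cell types were far apart in controls, while the BEC value of mutant 5 lay within the range of the mutants' LECs. BECs were higher 2.71-fold in controls (log2 fold change -1.44, SE 0.29, adjusted p = 0.0183) and 1.56-fold in mutants (log2 fold change -0.64, SE 0.18, adjusted p = 0.0439). Both calls rest on few mice, and that in mutants was also lost with the stricter gate (-0.44, adjusted p = 0.126): without either control, or without mutant 1, 2, 3 or 4, the adjusted p was 0.0657 and 0.172, and 0.130, 0.129, 0.0880 and 0.127. Over all alternatives the adjusted p ran from 1.7e-05 to 0.172 in controls and from 0.00253 to 0.130 in mutants.

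*Pvr*, the second nectin-family ligand, did not separate the cell types. In LECs it was at 43.5 and 29.7 CPM in controls 1 and 2 and at 21.3, 28.8, 50.1, 53.9 and 54.5 CPM in mutants 1–5, and in BECs at 50.8 and 61.0 CPM and 29.1, 22.7, 37.3, 68.1 and 54.7 CPM. The log2 difference was -0.01 in mutants (95% interval -0.47 to 0.44) and -0.60 in controls (-1.33 to 0.12). *Pdcd1lg2* had 0 reads in all 1641 LECs, where 3 reads would have been 0.0154 to 0.0539 CPM. In BECs it had 30 reads in control 1, 29 in control 2 and 33 in mutant 2, and in each of these mice 1 cell held over 90% of them, so no fold is given.

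**Figure D2:**
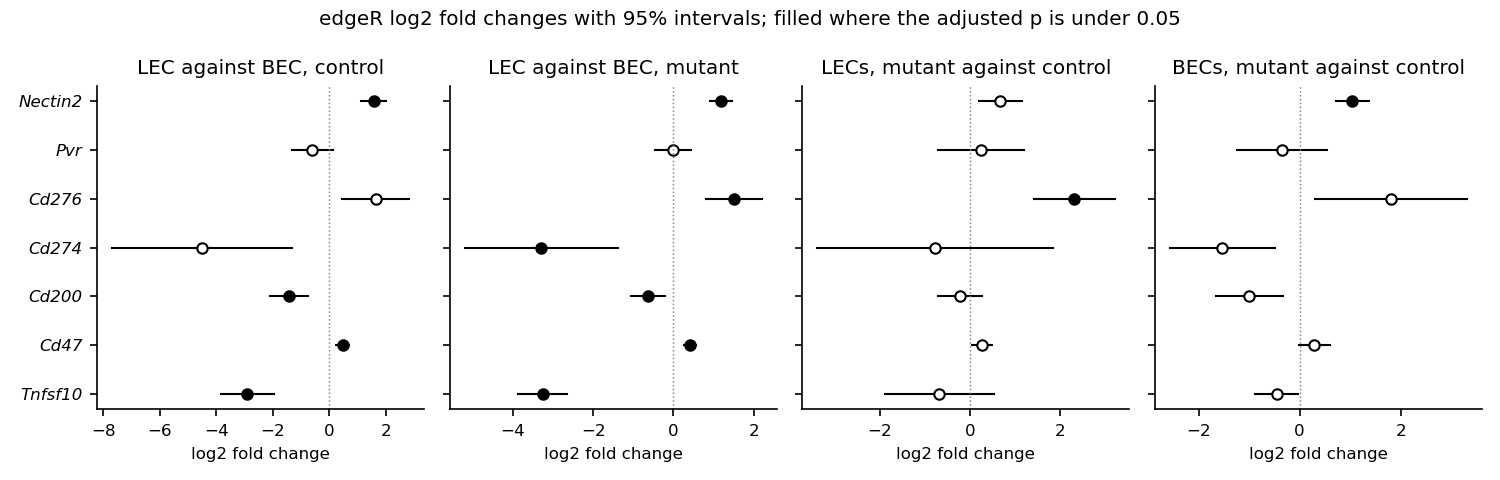
Log2 fold changes of 7 ligand genes (x axes) in 4 comparisons, from edgeR fits over all genes, with 95% intervals as lines; filled points have an adjusted p under 0.05. *Nectin2* and *Tnfsf10* lie on opposite sides of 0 in LECs against BECs of both genotypes, and among the mutant against control values *Cd276* in LECs and *Nectin2* in BECs are filled.

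The next question was whether the ligands differed between mutant and control mice. In LECs 1 of 7 members tested passed, *Cd276*, against 2.76% of all 19758 genes, and in BECs 1 of 8, *Nectin2*, against 2.12% of 19315 genes. Both were higher in mutants.

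*Cd276* was 4.95-fold higher in LECs of mutants (log2 fold change 2.31, SE 0.39, adjusted p = 0.0261), and the lowest mutant (76.9 CPM) was above the higher control (37.2 CPM). In BECs the same order held, 40.8 against 24.6 CPM, and the 3.50-fold difference missed the threshold (log2 fold change 1.81, adjusted p = 0.187). Its size in BECs depended on the control, with 0.98 without control 1 and 3.94 without control 2. On all mice DESeq2 called the difference in BECs (adjusted p = 0.0218). Cycling cells moved with genotype: 1.64% and 2.29% of LECs in the controls and 13.2 to 34.2% in the mutants were cycling, with 3 or more of 7 proliferation genes read. Without them the log2 difference of *Cd276* in LECs was 2.20 (adjusted p = 0.0674). Within the plate series that holds mutant 5 and both controls it was 2.28 (adjusted p = 0.290, with 1 mutant assumed to vary like the controls), and with the series as a covariate 2.27 (adjusted p = 0.115). The call was also lost without control 1 (adjusted p = 0.0881) and without mutant 2, 3 or 4, with the replicate block (adjusted p = 0.111) and with the stricter gate (1.80, adjusted p = 0.181). Over its alternatives the adjusted p ran from 5.4e-09 to 0.290 and the log2 value from 1.80 to 2.75.

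*Nectin2* was 2.06-fold higher in BECs of mutants (log2 fold change 1.04, SE 0.14, adjusted p = 0.0122), where the lowest mutant had 263 CPM and the higher control 158 CPM. In LECs the difference was 1.59-fold, also without overlap of the groups, and missed the threshold in edgeR (adjusted p = 0.122), while DESeq2 called it (adjusted p = 0.0350). The summed markers of other skin cells reached 1000 CPM or more in 39.6% and 22.3% of control BECs, against 6.52 to 13.9% in mutants. With those cells left out the log2 difference of *Nectin2* was 0.86 (adjusted p = 0.0276). Without control 1 its adjusted p was 0.0533, within the plate series of mutant 5 and the controls the difference was 1.13 (adjusted p = 0.875), and with the series as a covariate 1.12 (adjusted p = 0.0789), and its alternatives ranged from 9.8e-11 to 0.875.

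The 3 ligands that were higher in BECs had lower values in BECs of mutants than of controls, and none passed. *Cd200* had a log2 difference of -0.995 (95% interval -1.65 to -0.34, adjusted p = 0.119) and *Cd274* one of -1.53 (-2.57 to -0.48, adjusted p = 0.128), with every mutant below both controls for each gene. *Tnfsf10* had -0.46 (-0.88 to -0.04, adjusted p = 0.223), again with no overlap. DESeq2 called *Cd200* and *Cd274* on the same sums (adjusted p = 0.0167 and 0.0194). With the plate series as a covariate edgeR called *Cd200*, at -1.92 (adjusted p = 0.0440), and the value within the series of mutant 5 and the controls was -1.91 (adjusted p = 0.854). For *Cd274* these values were -2.29 (adjusted p = 0.366) and -2.27 (adjusted p = 0.856). Without mutant 5 edgeR called *Cd200* (-0.85, adjusted p = 0.0402), and without mutant 4 *Cd274* (-1.92, adjusted p = 0.0418), in ranges of 0.0167 to 0.854 and 0.0194 to 0.856 over their alternatives. In LECs the values of *Cd200* (-0.22), *Cd274* (-0.78), *Tnfsf10* (-0.68), *Cd47* (0.26) and *Pvr* (0.23) had adjusted p of 0.197 to 0.799, and in BECs *Cd47* (0.29) and *Pvr* (-0.35) had 0.265 and 0.660.

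The genotype effect itself was compared between LECs and BECs with an interaction term. Of 8 members 0 passed in edgeR, against 0.191% of all genes, 1 had an unadjusted p under 0.05, and DESeq2 called 0. Of all 21933 genes, 2528 had such a p and DESeq2 called 1241. The member with an unadjusted p under 0.05 was *Cd200*, whose value in mutants was lower by less in LECs than in BECs. The signed difference of its effects was 0.80 on the log2 scale (95% interval 0.01 to 1.58, adjusted p = 0.427). For *Nectin2* the difference was -0.38 (-0.90 to 0.14). The intervals leave room for effects that differ between the cell types, and a gene called in one and not in the other was not shown to differ.

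Since BECs are of several kinds, the members were followed in BECs with arterial markers (*Gja5*, *Sema3g* and *Bmx* at 100 CPM or more and above *Ackr1* and *Selp*), with venous markers (the reverse) and with neither. Cells with venous markers made up 17.6% and 12.1% of BECs in the controls and 39.1 to 54.6% in the mutants, and more venous cells or more of these 2 transcripts per cell cannot be told apart. *Cd200* was lower in them than in either other class in 7 of 7 mice. Its level there was 179.9 and 166 CPM in controls 1 and 2 and 152, 144, 184, 193 and 96.7 CPM in mutants 1–5. In BECs with arterial markers it was 862 and 665 CPM and 643, 448, 422, 434 and 332 CPM, and in those with neither 744 and 861 CPM and 523, 574, 529, 817 and 215 CPM. The genotypes thus overlapped in the venous class, where all values were low, while 5 of 5 mutants in the arterial class and 4 of 5 in the class with neither lay below both controls.

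*Cd47* showed the opposite order and was higher in the venous class than in either other class in 7 of 7 mice, with 716 and 786 CPM in controls 1 and 2 and 577, 671, 759, 748 and 786 CPM in mutants 1–5. In the arterial class it was at 488 and 471 CPM and 475, 490.3, 526, 645 and 489.7 CPM. These venous values overlapped the levels of LECs. *Nectin2* was higher in the venous than in the arterial class in 7 of 7 mice, and in cells with neither marker set it stood at 166 and 163 CPM in controls 1 and 2 and at 306, 285, 297, 287 and 323 CPM in mutants 1–5, so the genotypes stood apart within that class too. *Cd274* was lower in the venous than in the arterial class in 6 of 7 mice, and *Tnfsf10* in 3 of 7. The part of the venous share in the genotype values of whole BECs was not tested.

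**Figure D3:**
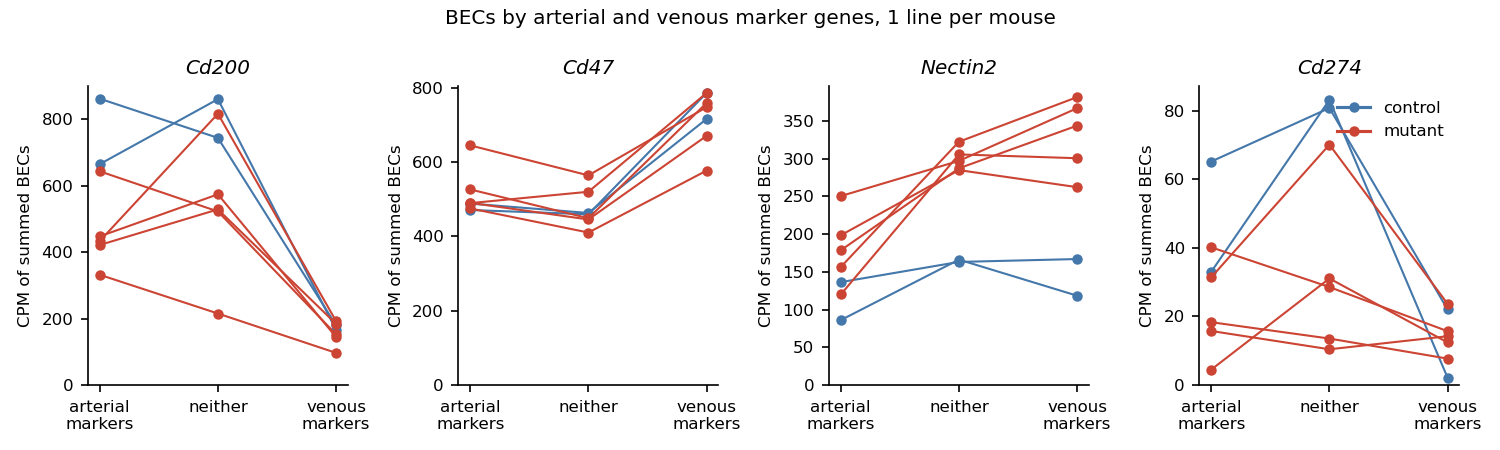
CPM of 4 ligand genes (y axes, linear from 0) in BECs summed by arterial markers, neither set or venous markers (x axis), with 1 line per mouse, blue for controls and red for mutants. *Cd200* falls and *Cd47* rises in the venous class of all 7 mice, and the *Nectin2* lines of mutants and controls stay apart in cells with neither set.

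The LECs with at least 100 CPM of *Ptx3* were compared with the other LECs of the same mice. They numbered 12 of 183 LECs in control 1, 44 of 175 in control 2, and 62, 62, 126, 76 and 162 in mutants 1–5. Their share of LECs was 6.56% and 25.1% in controls 1 and 2 and 33.2 to 44.1% in the mutants. The part of this share in the genotype values of whole LECs was not tested. In mutants 2 of 7 members tested were higher in *Ptx3* LECs, *Cd276* and *Cd200*, against 0.921% of all 19764 genes called in that direction and 2.52% in either. The paper had already listed both genes among transcripts enriched in the *Ptx3*-high LECs of its control mice. The count is therefore no independent support for an enrichment of the members. In controls edgeR called 0 of 7, against 0.162% of all genes, 4 had an unadjusted p under 0.05, and DESeq2 called 4. Of all 19764 genes, 2926 had such a p in controls and DESeq2 called 2070. The scaling left the median of all genes at -0.25 on the log2 scale in controls and -0.04 in mutants, which is the base to read the values against.

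*Cd276* was at 88.1 and 80.4 CPM in *Ptx3* LECs of controls 1 and 2 and at 145, 362, 256, 276 and 183 CPM in those of mutants 1–5. In other LECs it was at 15.1 and 20.8 CPM and 35.8, 49.0, 50.9, 95.9 and 87.2 CPM. *Ptx3* LECs were higher in all 7 mice, 3.94-fold in mutants (log2 fold change 1.98, SE 0.25, adjusted p = 0.00873) and 4.90-fold in controls (adjusted p = 0.0758). DESeq2 called the control value (adjusted p = 3.9e-06). Without control 2, with 1 control left, the log2 value in controls was 2.60. In control 1 the reads came from 2 of 12 cells. The call in mutants was lost with the stricter gate (1.76, adjusted p = 0.339, in a range of 3.1e-11 to 0.339). The contrast did not pass as different between genotypes (log2 difference -0.31, 95% interval -1.36 to 0.74, adjusted p = 0.840).

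*Cd200* was at 513 and 261 CPM in *Ptx3* LECs of controls 1 and 2 and at 221, 256, 344, 321 and 265 CPM in those of mutants 1–5. Other LECs held 262 and 213 CPM and 140.1, 136, 187, 186 and 144 CPM. Here too *Ptx3* LECs were higher in 7 of 7 mice, 1.79-fold in mutants (log2 fold change 0.84, SE 0.11, adjusted p = 0.00935) and 1.60-fold in controls (adjusted p = 0.154, DESeq2 0.0104). On leaving out a mouse the log2 value in controls ran from 0.30 to 1.03. The call in mutants was lost with the stricter gate (adjusted p = 0.0741) and without the mouse as a block (adjusted p = 0.0719), in a range of 2.3e-07 to 0.0741 over its alternatives.

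*Nectin2* had a log2 difference of 0.50 in controls and -0.10 in mutants (adjusted p = 0.212 and 0.790), and the difference of these contrasts was -0.59 (95% interval -1.01 to -0.18, adjusted p = 0.271). *Cd47* had 0.18 and 0.16 (adjusted p = 0.461 and 0.325). *Pvr*, *Cd274* and *Tnfsf10* did not pass in edgeR in either genotype, and their values in *Ptx3* LECs rested on few cells: in control 1 a single cell held 90.3% of the *Tnfsf10* reads and 76.0% of the *Pvr* reads. *Pvr* had a log2 difference of -1.51 in controls (edgeR adjusted p = 0.190). DESeq2 called *Pvr* and *Nectin2* in controls (adjusted p = 0.0158 and 0.0310). Between genotypes the contrast differed for 0 of 7 members in edgeR, against 0.0202% of all genes, with 3 at an unadjusted p under 0.05 and 0 called by DESeq2. Over all 19764 genes, 2417 had such a p for this difference and DESeq2 called 1344.

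The limit on *Ptx3* cuts through a range, with 2 and 13 LECs of the controls and 9 to 42 of each mutant between 50 and 200 CPM, so *Cd276* and *Cd200* were also read over the level of *Ptx3*. *Cd276* was at 17.6, 27.3, 7.56, 98.8 and 4.23 CPM in the 13, 64, 77, 51 and 12 LECs of mutants 1–5 without a *Ptx3* read, and at 37.7, 71.0, 68.6, 93.5 and 90.7 CPM in their LECs with *Ptx3* above 0 and under 100 CPM. At 100 to under 500 CPM of *Ptx3* it was at 151, 298, 177, 179 and 197 CPM, and at 500 CPM or more at 142, 414, 307, 358 and 169 CPM. Each mutant was higher in both upper classes than in both lower ones. In the controls it was at 8.61 and 16.7 CPM without a *Ptx3* read, and at 100 to under 500 CPM of *Ptx3* it was at 67.8 and 36.4 CPM. Control 2 reached 144 CPM at 500 CPM or more of *Ptx3*, above mutant 1, so the genotypes overlapped in the highest class. *Cd200* was at 203, 172, 191, 190.0 and 140.3 CPM in mutant LECs without a *Ptx3* read and at 226, 298, 374, 395 and 279 CPM in those with 500 CPM or more, and was higher in the latter in all 5 mutants. Above 0 and under 100 CPM of *Ptx3* it was at 133, 98.7, 186, 183 and 144 CPM, lower than without a read in mutants 1–4. Controls 1 and 2 were at 278 and 216 CPM without a read and at 233 and 211 CPM above 0 and under 100. At 100 to under 500 CPM of *Ptx3* they were at 523 and 215 CPM.

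Mutant and control mice were compared within each class of LEC. In *Ptx3* LECs edgeR called 0 of 7 members, against 5.1% of 16727 genes (853 genes, but 288 to 4335 on leaving out a mouse, the lowest without mutant 4 and the highest without control 2, 279 without cycling cells and 24 with the plate series as a covariate), 3 had an unadjusted p under 0.05 and DESeq2 called 3. Among them *Cd276* was 2.90-fold higher in mutants (95% interval of the log2 value 0.69 to 2.39, adjusted p = 0.0514), with no overlap in the sums of all *Ptx3* LECs, and edgeR called it without mutant 1 (adjusted p = 0.0471) and without the expression filter (adjusted p = 0.0453). *Tnfsf10* had a log2 difference of -3.05 (-4.98 to -1.11, adjusted p = 0.0755), which was -1.71 without control 1 and -3.71 without control 2. *Pvr* was 2.96-fold higher in *Ptx3* LECs of mutants (edgeR adjusted p = 0.129), and DESeq2 called it (adjusted p = 0.0241). The median of all genes was 0.10 on the log2 scale. Of the 16727 genes tested in *Ptx3* LECs, 3984 had an unadjusted p under 0.05 and DESeq2 called 2925. In other LECs edgeR called 0 of 7, against 0.0536% of 18665 genes, 3 had an unadjusted p under 0.05 and DESeq2 called 2, *Cd276* (3.65-fold, edgeR adjusted p = 0.141) and *Nectin2* (1.69-fold, edgeR adjusted p = 0.227). Among those 18665 genes 2538 had an unadjusted p under 0.05 and DESeq2 called 1185.

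To see how many cells carried each transcript, every cell was thinned to 50000 reads and the share of cells with a read was taken per mouse. With 2 controls and 5 mutants the exact permutation test over the 21 splits of the mice cannot go below a two-sided p of 0.0952. In LECs 4 of 7 members with a read showed no overlap between the genotypes, where 22.2% of 27085 genes did, and in BECs 5 of 8, where 20.3% of 27186 genes did. The 5 in BECs included *Pdcd1lg2* near the floor, with a read in 0.629% and 0.637% of BECs in the controls. It was read in 0.543% of BECs in mutant 2 and in no BEC of the other mutants. *Cd276* had a read in 5.46% and 13.1% of LECs in controls 1 and 2 and in 27.7, 36.4, 35.8, 38.5 and 41.4% in mutants 1–5 (p = 0.0952, exact permutation test, the lowest it can give). In BECs the shares were 4.40% and 9.55% against 16.7 to 24.6%, so more cells of both types gave a *Cd276* read in every mutant.

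*Cd200* had a read in 93.7% and 93.0% of BECs in the controls and in 63.4 to 79.4% in the mutants, and in LECs in 83.1% and 81.1% against 58.3 to 78.0%. *Nectin2* was found in 82.5% and 72.6% of LECs in the controls and 82.9 to 98.4% in the mutants. *Cd274* was found in 23.3% and 15.9% of BECs in the controls and 6.27 to 15.5% in the mutants, and *Tnfsf10* in 16.9% and 9.14% of LECs against 3.81 to 7.71%. *Cd47* was found in at least 87.3% of the cells of either type in every mouse. Without thinning, *Cd276* was read in 14.8% and 26.3% of LECs in the controls and 47.1 to 80.4% in the mutants. When cells were thinned to 100000 reads the groups still did not overlap for *Cd276* in either cell type, and they did for *Nectin2* in both and for *Cd200* in LECs. A read can also come from free RNA of lysed cells, and *Pdcd1lg2*, read in none of the LECs, gives no measure of it.

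The other genes of these pathways were read from 3 lists. Of 25 other checkpoint and costimulatory ligands, 18 were tested in LECs against BECs. In each genotype 3 were higher in LECs, with *Fgl2* the furthest, and 3 were higher in BECs (*Ceacam1*, *Nt5e*, *Entpd1*). Over all genes 9.9% were higher in LECs and 9.26% in BECs of mutants, and 5.67% and 4.71% in controls. The median over the 18 was -0.40 in mutants, where that of all genes was 0.03. *Fgl2*, a secreted inhibitor of T cells, was at 1384 ± 305 CPM in LECs of mutants (SD, n = 5) and 83.9 ± 54.3 CPM in their BECs (log2 fold change 4.20, SE 0.41, adjusted p = 2.5e-04). *Entpd1* and *Nt5e*, whose enzymes turn extracellular ATP into adenosine, had log2 fold changes of -6.69 and -4.30 in mutants (the call of *Nt5e* in controls was lost with the stricter gate), and *Ceacam1*, an adhesion molecule, -3.18. In mutants *Cd40* was higher and *Fgl2*, *Cd24a* and *Vsir* were lower in *Ptx3* LECs than in other LECs, 4 of 16 tested; the calls of *Cd40* and *Cd24a* were lost without any 1 of the 5 mutants and that of *Vsir* without mutant 1, 2, 3 or 4, and all 3 were lost with *Ptx3* of at least 200 CPM, those of *Cd24a* and *Vsir* without cycling cells and those of *Cd40* and *Vsir* with the stricter gate. *Fgl2* was at 478 ± 59.2 CPM in *Ptx3* LECs of mutants and 2034 ± 475 CPM in other LECs (log2 fold change -2.05, SE 0.09, adjusted p = 9.2e-05). Between genotypes *Cd40* was higher and *Fgl2* lower in *Ptx3* LECs of mutants, 2 of 15 tested, and the call of *Cd40* was again lost without any 1 mutant, without cycling cells (adjusted p = 0.107) and with the series as a covariate (adjusted p = 0.119), while that of *Fgl2* was lost with the replicate block (adjusted p = 0.0575). In whole LECs edgeR called 0 of 16 between genotypes, with 6 at an unadjusted p under 0.05 and 5 called by DESeq2, and in BECs 0 of 17, with 3 and 0. Over all genes, 3963 of 19758 in LECs and 3793 of 19315 in BECs had such a p, and DESeq2 called 2472 and 2238. The 4 of 16 and 2 of 15 called in the comparisons of *Ptx3* LECs stand against 2.52% and 5.1% of all genes.

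Of 11 receptors and partners, 9 were tested in LECs against BECs. *Sirpa*, the receptor of CD47, was higher in LECs, at 212 ± 53.4 CPM against 20.1 ± 13.6 CPM in controls (SD, n = 2; log2 fold change 3.58, SE 0.28, adjusted p = 4.7e-04) and also in mutants (log2 fold change 1.58), and *Tnfrsf23*, a decoy receptor of TRAIL, was higher in BECs of controls (-3.79), a call lost without control 1 (-2.74, adjusted p = 0.148) and without the mouse as a block (adjusted p = 0.0547), with -4.93 without control 2. *Thbs1*, whose product thrombospondin-1 binds CD47, was lower in *Ptx3* LECs of mutants than in their other LECs (log2 fold change -1.94, SE 0.20, adjusted p = 0.00422) and than in *Ptx3* LECs of controls (log2 fold change -1.74, SE 0.37, adjusted p = 0.0335), and the call between genotypes was lost in most alternatives. The value was -1.25 without cycling cells (adjusted p = 0.174), -1.22 with the plate series as a covariate (adjusted p = 0.521) and -1.21 within the single series, and the call of *Thbs1* was also lost without control 1 or mutant 1, 2, 3 or 4, with the replicate block (adjusted p = 0.633), the stricter gate, first plates only, thinned cells or *Ptx3* of at least 200 CPM, without cells with markers of other skin cells and without the expression filter. With *Ptx3* of at least 200 CPM the call of *Thbs1* within mutants was lost too (adjusted p = 0.0691). In mutants 5 of 11 regulators were higher in BECs than in LECs (among them *Irf1*, *Jak2*, *Ifngr1* and *Cmtm6*), against 9.26% of all genes. In controls 2 were (*Irf1*, *Ifngr1*), against 4.71%. *Irf1*, a transcription factor induced by interferon, was at 239 ± 10.8 CPM in BECs and 43.2 ± 21.2 CPM in LECs of controls (SD, n = 2; log2 fold change -2.53, SE 0.31, adjusted p = 0.00219), and *Cmtm6*, whose product keeps PD-L1 on the cell surface, differed by -0.60 as LEC minus BEC in mutants. Between genotypes edgeR called 0 of 9 receptors and 0 of 11 regulators in LECs (1 and 2 at an unadjusted p under 0.05, 1 and 1 by DESeq2) and 0 of 6 and 0 of 11 in BECs (3 and 3, 2 and 1). The numbers over all genes given above for whole LECs and BECs are the base for these counts too.

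The genes most like each member were taken by Pearson's r of log2(CPM + 1) over 21 sums (*Ptx3* LECs, other LECs and BECs of 7 mice), among 10251 genes with a mean of at least 10 CPM. These sums share mice and fall into cell types, so r is a description. *Cd276* was closest to *Lmna*, *Mmp14* and *Slc38a2* (r = 0.92 to 0.91), *Nectin2* to *Parva*, *Smyd2* and *Ube2g2* (0.94 to 0.92) and *Cd47* to *Itga9*, *Galnt1* and *Anxa1* (0.93 to 0.92). *Tnfsf10* was closest to *Cd36*, *Lzts2* and *Syt15* (0.94 to 0.93), and *Cd274* to *Gm12002*, *Trim30a* and *Rapgef4* (0.93 to 0.92). *Cd200* (*Ifi203-ps*, *Pik3r6*, *Fez2*) and *Pvr* (*Cdc40*, *Usp12*, *Schip1*) reached 0.82 and 0.81 at most.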

How the data were processed

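Single endothelial cells of mouse ear skin were sorted into 384-well plates and read by Smart-Seq2. The deposited values are raw read counts per gene and well: the authors aligned reads with TopHat2 2.1.1 to GRCm38 with a chicken PIK3CA sequence added, removed duplicates with SAMtools 0.1.18 and counted with featureCounts (Subread), while the annotation version and strand setting are not given in the sources used here. The deposited gene lengths served for levels per kilobase. The 92 ERCC spike-in rows (0.447% of reads) were left out, and 46005 of 46517 Ensembl genes had a symbol in GENCODE vM21. Control 3 (Cre-, 4-OHT) was not analysed here. Groups came from the labels, and the plates of a mouse were added.

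Counts were summed per mouse and cell class and tested with edgeR 4.0.16 (filterByExpr, TMM, quasi-likelihood F test) in R 4.3.3, with Benjamini-Hochberg adjustment over all genes and the mouse as a block in contrasts within mice. Shares of cells used an exact permutation test over mice (scipy 1.17.1, Python 3.11.15). DESeq2 1.42.0, other scaling, filters, gates, thinning, plate series and leaving out each mouse were alternatives. Leaving out 1 control leaves a single control, so the spread in such a fit comes from the mutants alone. A call gained or lost there says nothing on how controls vary. No doublet caller was run, and 1048 LECs also had a BEC marker sum of at least 300 CPM. In LECs and BECs of the same mouse, which share an animal, deviations from the group means correlated by 0.138 to 0.461 across genes. The sums hold 4098711 to 194353210 reads, reads without molecular barcodes are not independent molecules, and p-values measure the spread between these mice. On simulated counts with an absolute log2 change of 2 the test recovered 61.1% of changed genes between genotypes in LECs (19086 genes) and 55.1% in BECs (18690 genes), and with a change of 1 17.7% and 11.5%. The members and the gene lists were chosen with earlier results of these data known. From each list and comparison at most 4 called genes were named, those that changed most among genes whose mean log2 CPM was 3 or higher.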

Additional observations from a re-analysis of the deposited data

Results flagged for a closer look

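In 29 groups of 5 mutant mice tested for a single mouse far from the others (Dixon's test), 3 values stood out, and chance alone flags about 1 in 20 such groups. *Pdcd1lg2* in BECs was at 0.762 CPM in mutant 2 and at 0 in the other mutants, and 1 cell held 97.0% of its 33 reads. *Pvr* in *Ptx3* LECs was at 15.4 CPM in mutant 1 and at 41.8 to 51.7 CPM in the other mutants. *Nectin2* in *Ptx3* LECs was at 864 CPM in mutant 5, which shares its plate numbering with the controls, and at 557 to 624 CPM in the other mutants.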

How the results depend on the processing

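The 14 member results called kept their direction under all alternatives run, and all 14 stayed called with DESeq2, with other size factors and without the expression filter, 9 with the stricter gate and 12 without cycling cells. With 2 controls, 1 of them untreated and of another strain label, and with plate series largely confounded with genotype, the genotype calls rest on few mice, and neither of the 2 stayed called within a plate series, with the series as a covariate or with the replicate block. The cause of each change was not tested. With the replicate block only mutants 1 and 2 share a number with a control. Over all genes that setting called 3 in LECs and 0 in BECs, so a call lost under it decides nothing.

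Members called between genotypes in LECs (1) numbered 2 with DESeq2 and 0 without cycling cells, with the stricter gate, the replicate block, the single plate series and the series as a covariate, and 0 to 1 on leaving out a mouse. In BECs (1) they numbered 4 with DESeq2, 0 with the replicate block and within the single series, 1 with the series as a covariate (*Cd200* in place of *Nectin2*), and 0 to 2 on leaving out a mouse. Between LECs and BECs they numbered 2 to 4 in controls and 4 to 6 in mutants on leaving out a mouse. For *Ptx3* LECs of controls (0) they numbered 4 with DESeq2, 1 without cells with markers of other skin cells and 1 with *Ptx3* of at least 200 CPM, and 0 to 2 on leaving out a mouse. For *Ptx3* LECs of mutants (2) they numbered 0 with the stricter gate and 1 with no replicate block. Between genotypes in *Ptx3* LECs (0) they numbered 3 with DESeq2, 1 without the expression filter and 0 to 2 on leaving out a mouse, and in other LECs (0) 2 with DESeq2.

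Only uncalled values changed sign. On the log2 scale, *Pvr* was -0.51 between genotypes in LECs with the replicate block, 0.033 in BECs with the stricter gate and 0.0080 within the single series, and 0.051 and 0.039 between LECs and BECs of mutants with first plates only and with thinned cells. The difference of the *Ptx3* contrast for *Cd276* was 0.45 without cycling cells. On leaving out a mouse, values in LECs between genotypes ran from -0.41 to 0.013 for *Cd200*, from -1.66 to 1.93 for *Cd274* and from -0.055 to 0.62 for *Pvr*, those between LECs and BECs of mutants from -0.14 to 0.11 for *Pvr*, and the *Ptx3* contrast from -0.18 to 0.0070 for *Nectin2* in mutants and from -0.63 to 0.013 for *Cd276* as the difference between genotypes.

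Replicate numbers 1 and 2 occur in both genotypes, and control 1, by the paper a separately bred wild-type mouse, is no littermate of mutant 1. Deviations of mice with the same number correlated by -0.0529 and -0.0171 in LECs and by 0.0147 and 0.129 in BECs. With 2 controls their deviations mirror each other, so these values cannot decide on a pairing. Over all genes the calls numbered 546 in LECs and 410 in BECs between genotypes, 2472 and 2238 with DESeq2, 82 in LECs without cycling cells, 640 in BECs without cells with markers of other skin cells, 3 and 0 with the replicate block, 3 and 0 within the single series and 178 and 54 with the series as a covariate. Between LECs and BECs of controls they numbered 2277 and 4317 with DESeq2, for their difference between genotypes 42 and 1241, for the *Ptx3* contrast 32 and 2070 in controls, 498 and 1817 in mutants and 4 and 1344 for the difference, and between genotypes 853 and 2925 in *Ptx3* LECs and 10 and 1185 in other LECs. On leaving out a mouse they ran from 153 to 546 in LECs and from 159 to 586 in BECs between genotypes, from 1145 to 2129 between LECs and BECs of controls, from 0 to 21 for the difference of the genotype effect, from 0 to 2503 and 128 to 885 for the *Ptx3* contrast in controls and mutants, from 1 to 1965 for its difference and from 288 to 4335 in *Ptx3* LECs and 0 to 10 in other LECs between genotypes, with the 3 values above 1000 in *Ptx3* LECs without control 2. In *Ptx3* LECs between genotypes they numbered 279 without cycling cells, 29 with the replicate block, 48 within the single series and 24 with the series as a covariate.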
